A study of Mus musculus with 56 samples.

Results

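The liver expression of 10 genes was followed in 56 mice. They encode phospholipases A2 and proteins that take part in making leukotrienes, prostanoids and epoxide-derived diols from arachidonic acid. The genes were chosen by symbol for their place in this pathway, with earlier results of these data known. They make up 10 of the 45513 gene identifiers counted in each mouse. They are the phospholipases Pla2g4a, Pla2g7 and Pla2g12a, the leukotriene genes Alox5, Alox5ap and Lta4h, the prostanoid genes Ptgs1, Ptgs2 and Ptges, and Ephx2. Cytosolic phospholipase A2 (Pla2g4a) frees arachidonic acid from membrane phospholipids. The acid is then taken by the lipoxygenase that starts leukotriene synthesis, by the cyclooxygenases that start prostanoid synthesis, or by cytochrome P450 epoxygenases, whose epoxides soluble epoxide hydrolase (Ephx2) opens to diols. In liver, leukotriene and prostanoid enzymes are known mainly from resident and recruited myeloid cells, whereas the epoxide branch is abundant in hepatocytes.

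The mice were female APOE*3Leiden.CETP transgenics, a dyslipidemia model carrying human lipoprotein genes, 9 to 14 weeks old, and every group including control ate a Western-type diet with 15% cacao butter and 0.15% cholesterol. Control mice received the carboxymethyl cellulose vehicle by gavage. The kinase inhibitors of BCR-ABL1 were imatinib (150 mg/kg, 2 gavages per day), nilotinib at 10 or 30 mg/kg and ponatinib at 3 or 10 mg/kg, each given in 1 gavage per day beside a vehicle gavage. A reference group drank L-NAME, a nitric oxide synthase inhibitor, at 0.12 to 0.20% in water with vehicle gavage. Each of the 7 groups held 8 mice, treated for 16 weeks by the study's methods, which do not describe the L-NAME arm. All comparisons with control rest on the same 8 control mice, and imatinib was given at a single dose level.

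Between 5342379 and 17996732 reads per mouse fell on genes, except in L-NAME mouse 010 with 97473341. Expression is given in CPM, read counts scaled to a common library total after edgeR's TMM normalization. The hepatocyte markers Alb, Ttr, Apoa1 and 5 others summed to between 69590 and 151900 CPM per mouse. Of the uniquely aligned reads, 7.97% ± 0.422 (SD, n = 8) lay outside annotated genes in control mice. The share was higher with imatinib (10.04% ± 1.82, exact permutation test, two-sided, adjusted p = 0.00131 over 6 comparisons) and with ponatinib 3 mg/kg (8.53% ± 0.612, exact permutation test, adjusted p = 0.0466). In nilotinib 10 mg/kg, nilotinib 30 mg/kg, ponatinib 10 mg/kg and L-NAME mice it averaged 9.75%, 10.5%, 11.04% and 10.99%, and all 8 mice of each group exceeded every control (exact permutation test, adjusted p = 0.000233 each). In 5 libraries it exceeded 12% (L-NAME 010, imatinib 021, ponatinib 10 mg/kg 014, and nilotinib 30 mg/kg 031 and 044). A fit with the share as a covariate is given beside the calls that it ends. Because the share moved with treatment, this fit cannot tell the share apart from the treatment. A call lost in it therefore does not show that the share bears on that call.

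In control liver the 10 genes spanned a wide range. On the scale of CPM per kilobase of exon, Ephx2 stood at 241 ± 30.0 (SD, n = 8), far above Ptgs1, the constitutive cyclooxygenase, at 7.43 ± 1.77. Lta4h at 5.67 ± 0.489, Pla2g7 at 5.61 ± 2.40, Pla2g12a at 4.83 ± 1.89 and Alox5ap at 3.08 ± 0.965 CPM per kilobase followed. Pla2g4a stood lower at 0.639 ± 0.345, Ptges at 0.271 ± 0.210, Ptgs2 at 0.113 ± 0.201 and Alox5 at 0.0165 ± 0.0467 CPM per kilobase. Between neighbours in this order, the control ranges separated Ephx2 from Ptgs1 and Alox5ap from Pla2g4a, and all other neighbours overlapped. The spread between control mice also differed by gene, with a coefficient of variation of 8.63% for Lta4h and 12.4% for Ephx2 against 42.8% for Pla2g7 and 54.1% for Pla2g4a. Alox5 and Ptgs2 did not pass the filter on low counts, so 8 of the 10 genes were tested.

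**Figure D1:**
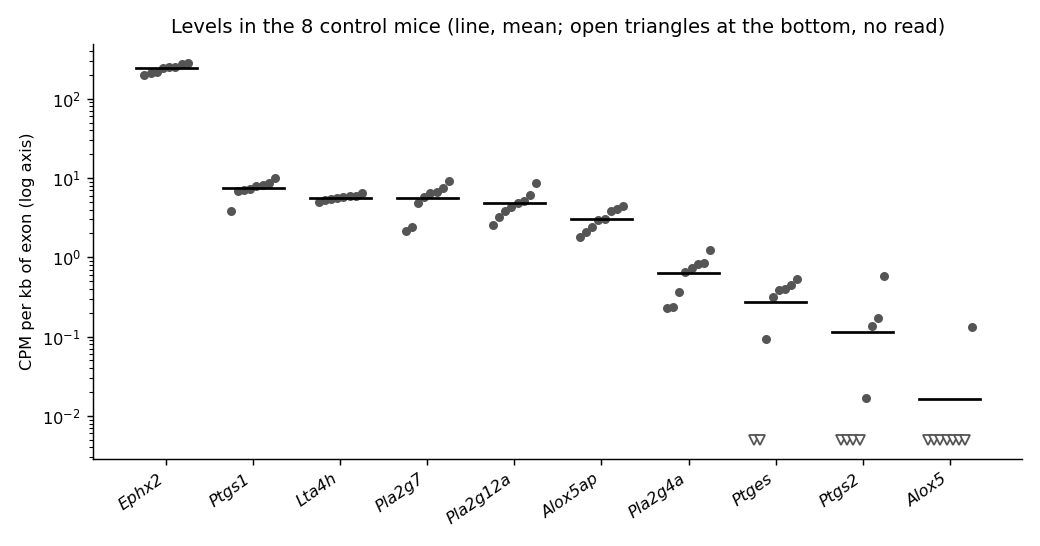
Level of each of the 10 genes in the 8 control mice, in CPM per kilobase of exon on a log axis (points, mice; lines, means; open triangles, mice without a read). Ephx2 averages 241 and the next gene, Ptgs1, 7.43, while Ptges, Ptgs2 and Alox5 have control mice without any read.

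Imatinib was the treatment with the most calls among these genes. Pla2g4a fell, and Pla2g12a and Ephx2 rose, at an adjusted p below 0.05. These 3 of 8 tested genes (37.5%) compare with 10.3% of all 14314 genes tested, of which 5.69% were higher and 4.58% lower. At an unadjusted p below 0.01, the threshold of the study, 4 of the 8 passed against 12.9% of all genes. Because the members were chosen with earlier results of these data known, these shares are a description and not a test.

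Pla2g4a, the arachidonate-releasing cytosolic phospholipase, lies at chromosome 1, 149829618 to 149961290, minus strand (GRCm38). In control mice it ranged from 1.48 to 7.85 CPM with a median of 4.39 CPM. With imatinib it ranged from 0.422 to 2.24 CPM with a median of 1.49 CPM, from 3 to 16 reads per mouse. The groups overlapped, with 4 of 8 imatinib mice below every control. The log2 fold change was -1.65 (SE 0.53, 95% confidence interval -2.70 to -0.59, edgeR adjusted p = 0.034), a fold of 0.319. The call was lost when any of 6 mice was left out (control 001, 033 or 040, imatinib 006, 021 or 027), with an adjusted p between 0.022 and 0.089 over the 16 omissions. It was also lost without the 5 libraries above (log2 fold change -1.56, adjusted p = 0.076) with the share of reads outside genes as a covariate (-1.43, adjusted p = 0.12) and with no filter on low counts (adjusted p = 0.05). In the other 5 treated groups the group means lay between 3.40 and 4.15 CPM, beside 4.08 ± 2.21 in control (SD, n = 8), and no call was made. The lowest of these mice, in the ponatinib 10 mg/kg group, had no Pla2g4a read.

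Pla2g7 encodes the lipoprotein-associated phospholipase that hydrolyses platelet-activating factor and oxidised phospholipids, and it lies at chromosome 17, 43568098 to 43612201, plus strand. The study itself listed it among lipid genes altered by imatinib, so its direction here is not independent evidence. Control mice ranged from 6.20 to 26.5 CPM with a median of 17.7 CPM. Imatinib mice ranged from 1.99 to 16.0 CPM with a median of 7.44 CPM. The groups overlapped, with 3 imatinib mice below every control. The log2 difference was -0.97 (SE 0.34, interval -1.65 to -0.30), and it missed the threshold (edgeR adjusted p = 0.053). It passed with DESeq2 (adjusted p = 0.035) with limma (adjusted p = 0.004) and with genes of mean CPM of at least 1 (adjusted p = 0.05 after rounding), and when control 022 or 028 or imatinib 039 or 051 was left out. Over the 8 other settings the adjusted p ran from 0.004 to 0.24.

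Both ponatinib groups had medians of Pla2g7 near that of imatinib. With 3 mg/kg it ranged from 4.27 to 18.6 CPM with a median of 8.12 CPM (log2 difference -0.81, interval -1.48 to -0.14, adjusted p = 0.37). With 10 mg/kg it ranged from 3.42 to 24.2 CPM with a median of 8.09 CPM (-0.53, interval -1.20 to 0.13, adjusted p = 0.32), a difference that passed in limma (-0.93, adjusted p = 0.037). Neither passed in edgeR, and both groups overlapped the controls. Nilotinib mice had medians of 17.95 CPM at 10 mg/kg and 19.1 CPM at 30 mg/kg, and L-NAME mice 15.99 CPM. Of the 2905 exon bases of Pla2g7, 319 are shared with an antisense transcript, 1700071M16Rik, and the library kit does not mark strand.

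Pla2g12a, a secreted phospholipase of broad tissue distribution, was the only member called with more than 1 treatment. It lies at chromosome 3, 129878606 to 129895825, plus strand. Control mice ranged from 9.53 to 31.7 CPM with a median of 16.7 CPM. Imatinib mice ranged from 19.5 to 43.2 CPM with a median of 30.8 CPM, and L-NAME mice from 12.0 to 45.3 CPM with a median of 28.9 CPM. Both groups overlapped the controls, with 4 imatinib mice and 2 L-NAME mice above every control. The log2 fold change was 0.81 with imatinib (SE 0.22, interval 0.37 to 1.25, edgeR adjusted p = 0.011) and 0.75 with L-NAME (SE 0.22, interval 0.31 to 1.19, adjusted p = 0.016). The imatinib call was made in all 16 fits that left out a mouse and in all 8 other settings, with an adjusted p of 0.0023 to 0.034 over these. The L-NAME call was lost without control 046 (adjusted p = 0.052), without L-NAME 055 (adjusted p = 0.058) and with the outside-gene share as a covariate (0.86, adjusted p = 0.064). In the nilotinib and ponatinib groups the medians lay between 18.2 and 21.9 CPM, the log2 differences between 0.11 and 0.34, and none was called.

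**Figure D2:**
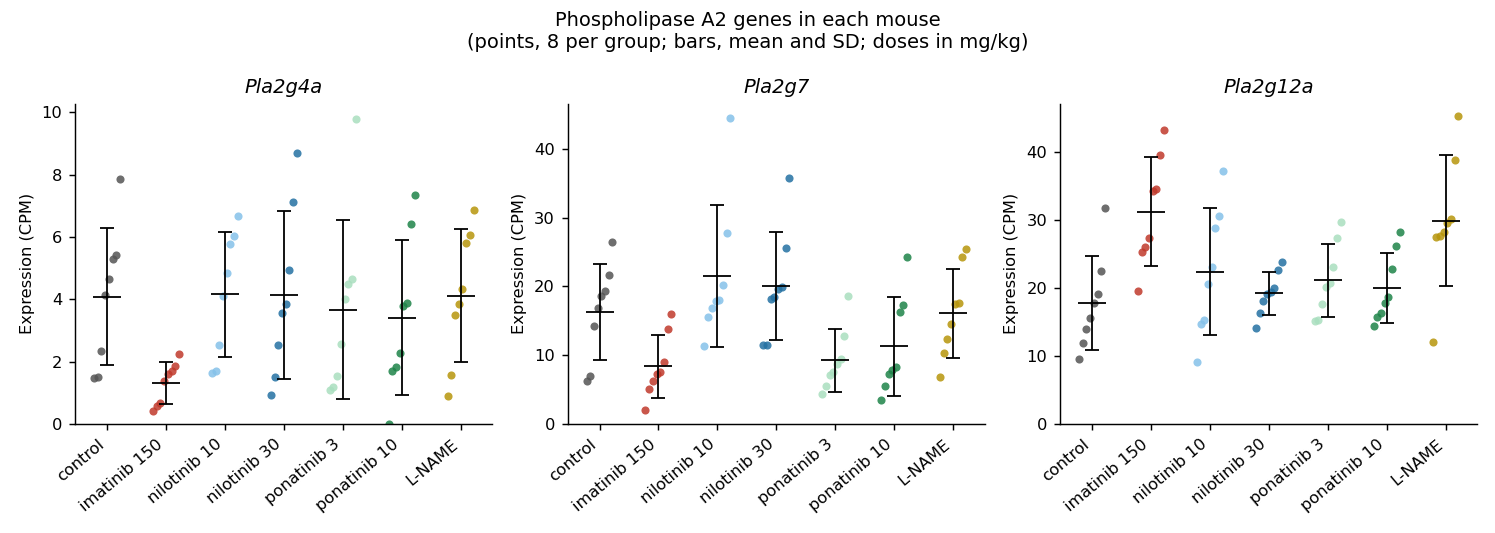
Expression of Pla2g4a, Pla2g7 and Pla2g12a in CPM in each of 8 mice per group (points), with mean and SD (bars). Imatinib mice reach at most 2.24 CPM of Pla2g4a and at least 19.5 CPM of Pla2g12a, and Pla2g7 has its lowest median, 7.44 CPM, with imatinib.

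The bases before the RefSeq start sites of the pair that was called in opposite directions with imatinib are shown for reference (GRCm38.p6, 250 bases on the gene's strand, 5′ to 3′). Promoters were listed for 8 of the 10 genes. Of 2 listed starts of Pla2g4a, the one shown is also the 5′ end of the GENCODE gene, whereas the single listed start of Pla2g12a lies 2578 bases inside it, at a shorter transcript. Capitals mark matches to 4 motifs searched on both strands, namely GGGCGG (the GC box), TATAAA (the TATA box), AGGTCA (a nuclear receptor element) and GAGGAA (an ETS core), whose letters do not overlap here.
Pla2g4a, chr1:149961291-149961540, minus strand: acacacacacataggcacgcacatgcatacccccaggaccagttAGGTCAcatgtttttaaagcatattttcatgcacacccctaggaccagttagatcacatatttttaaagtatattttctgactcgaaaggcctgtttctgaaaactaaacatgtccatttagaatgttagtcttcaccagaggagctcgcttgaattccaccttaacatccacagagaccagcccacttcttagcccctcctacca
Pla2g12a, chr3:129880934-129881183, plus strand: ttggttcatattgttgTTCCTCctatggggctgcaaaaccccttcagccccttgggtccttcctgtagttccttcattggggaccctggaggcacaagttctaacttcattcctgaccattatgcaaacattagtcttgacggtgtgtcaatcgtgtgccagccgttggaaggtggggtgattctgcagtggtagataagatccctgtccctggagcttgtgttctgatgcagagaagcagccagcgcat

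The Pla2g4a window holds 1 AGGTCA, a motif found in 14.0% of the 32851 listed promoter windows of this length, and the Pla2g12a window holds 1 GAGGAA on its reverse strand, found in 23.3%. Neither window holds GGGCGG (32.7% of windows) or TATAAA (12.4%). The windows have 43.2% and 50.8% G and C, beside a median of 52.4% over all windows, and 3 and 4 CpG dinucleotides, beside a median of 6.

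In the edgeR fit of all 7 groups no leukotriene gene was called in a comparison with control. Alox5, the lipoxygenase that makes leukotriene A4, was barely detected. It had 83 reads in all, in 13 of 56 mice, with 7 reads in 1 of 8 control mice and none with imatinib (3 reads over the group would be 0.0468 CPM). The highest values, 1.48, 1.46 and 1.46 CPM, came from 11 reads or fewer each in ponatinib 10 mg/kg mice 002 and 048 and ponatinib 3 mg/kg mouse 034. No difference between groups was detectable at this depth.

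Alox5ap encodes FLAP, the membrane protein that presents arachidonic acid to the lipoxygenase (chromosome 5, 149264767 to 149288153, plus strand). Control mice ranged from 2.53 to 6.32 CPM with a median of 4.29 CPM, and L-NAME mice from 2.81 to 11.8 CPM with a median of 7.78 CPM. In 7 of 8 L-NAME mice the level exceeded every control, but the lowest L-NAME mouse kept the groups overlapping. The log2 difference of 0.91 (SE 0.38, interval 0.15 to 1.68) did not pass in edgeR (adjusted p = 0.11), and it passed in DESeq2 (adjusted p = 0.044), in limma (adjusted p = 0.0031) and in edgeR on these 16 mice alone (adjusted p = 0.022). It did not pass in the other 6 of 9 alternative settings, with an adjusted p up to 0.51. Nor did it pass in any of the 16 edgeR fits that left out a mouse (adjusted p 0.08 to 0.21). With nilotinib 30 mg/kg mice ranged from 2.76 to 12.1 CPM (log2 difference 0.64, interval -0.13 to 1.41), and with ponatinib 10 mg/kg from 0 to 6.79 CPM (-0.65, interval -1.43 to 0.14). Neither passed, and both overlapped the controls. Of the 1420 exon bases of Alox5ap, 189 are shared with an antisense gene.

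Lta4h encodes the hydrolase that turns leukotriene A4 into leukotriene B4 (chromosome 10, 93453411 to 93484875, plus strand). Control mice lay closely together, from 30.5 to 39.8 CPM with a median of 34.4 CPM. Nilotinib 10 mg/kg mice ranged from 10.6 to 30.4 CPM with a median of 26.2 CPM. All 8 lay below every control, by a narrow margin for the highest. The share of all genes whose groups separate in this way is not given here, so the separation is not read as unusual. The log2 difference of -0.50 (SE 0.19, interval -0.89 to -0.11) did not pass (edgeR adjusted p = 0.19), in a comparison that called 1.41% of all genes. L-NAME mice ranged from 11.9 to 45.6 CPM with a median of 24.0 CPM, with 6 of 8 below every control (-0.43, interval -0.82 to -0.04, adjusted p = 0.15). This difference passed in limma (adjusted p = 0.04) and without L-NAME 038 (-0.60, adjusted p = 0.032). These were 1 of 9 other settings and 1 of 16 fits that left out a mouse. In the imatinib, nilotinib 30 mg/kg and both ponatinib groups 4 of 8 mice each lay below every control, the log2 differences ran from -0.25 to -0.14, and none passed.

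Among the prostanoid genes, Ptgs1, which encodes the constitutive cyclooxygenase (chromosome 2, 36230426 to 36252272, plus strand), was readily measured in every mouse. Control mice ranged from 14.8 to 38.5 CPM with a median of 29.4 CPM. Imatinib mice ranged from 9.40 to 41.3 CPM with a median of 21.2 CPM (log2 difference -0.27, interval -0.71 to 0.18). Nilotinib 30 mg/kg mice ranged from 27.8 to 48.7 CPM with a median of 41.1 CPM (0.39, interval -0.05 to 0.83), and 5 of 8 exceeded every control. The groups overlapped, and no comparison with control passed (lowest edgeR adjusted p = 0.33). Of its 3884 exon bases, 148 are shared with an antisense gene.

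Ptgs2, the inducible cyclooxygenase, was seen in 9 of 56 mice. In control mice it had 44 reads, from 4 of 8 mice, and mouse 033 alone had 22 of them (2.65 CPM). No read fell on Ptgs2 in any mouse given imatinib or ponatinib, where 3 reads over a group would be 0.0468, 0.0435 and 0.0439 CPM for imatinib, ponatinib 3 mg/kg and ponatinib 10 mg/kg. Nilotinib 10 mg/kg mice had 27 reads in 3 mice, nilotinib 30 mg/kg mice 1 read, and in the L-NAME group all 90 reads came from mouse 010, the most deeply sequenced. The gene was under the filter and was not tested. Without the filter, edgeR called it lower with imatinib (adjusted p = 0.034) and ponatinib 10 mg/kg (adjusted p = 0.026), calls that rest on the 4 control mice with reads. Ptges, the inducible prostaglandin E synthase, had 683 reads in 43 mice. Group means lay between 1.02 and 1.44 CPM, and every interval of its difference from control spanned more than 3 log2 units, so the direction of its change was not resolved at this depth.

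Ephx2, the soluble epoxide hydrolase, was the most abundant member and among the least variable (chromosome 14, 66084374 to 66124500, minus strand). Control mice ranged from 499 to 703 CPM with a median of 607 CPM. Imatinib mice ranged from 675 to 886 CPM with a median of 757 CPM. The groups overlapped, with 6 of 8 imatinib mice above every control. The log2 fold change was 0.36 (SE 0.10, interval 0.16 to 0.56, edgeR adjusted p = 0.015), a fold of 1.28. The call was made in all 16 fits that left out a mouse (adjusted p 0.0083 to 0.045), and of 8 other settings it was lost in the fit with the outside-gene share as a covariate (0.32, adjusted p = 0.076). In the other 5 treated groups the medians lay between 596 and 657 CPM and the log2 differences between -0.02 and 0.10, and none was called.

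**Figure D3:**
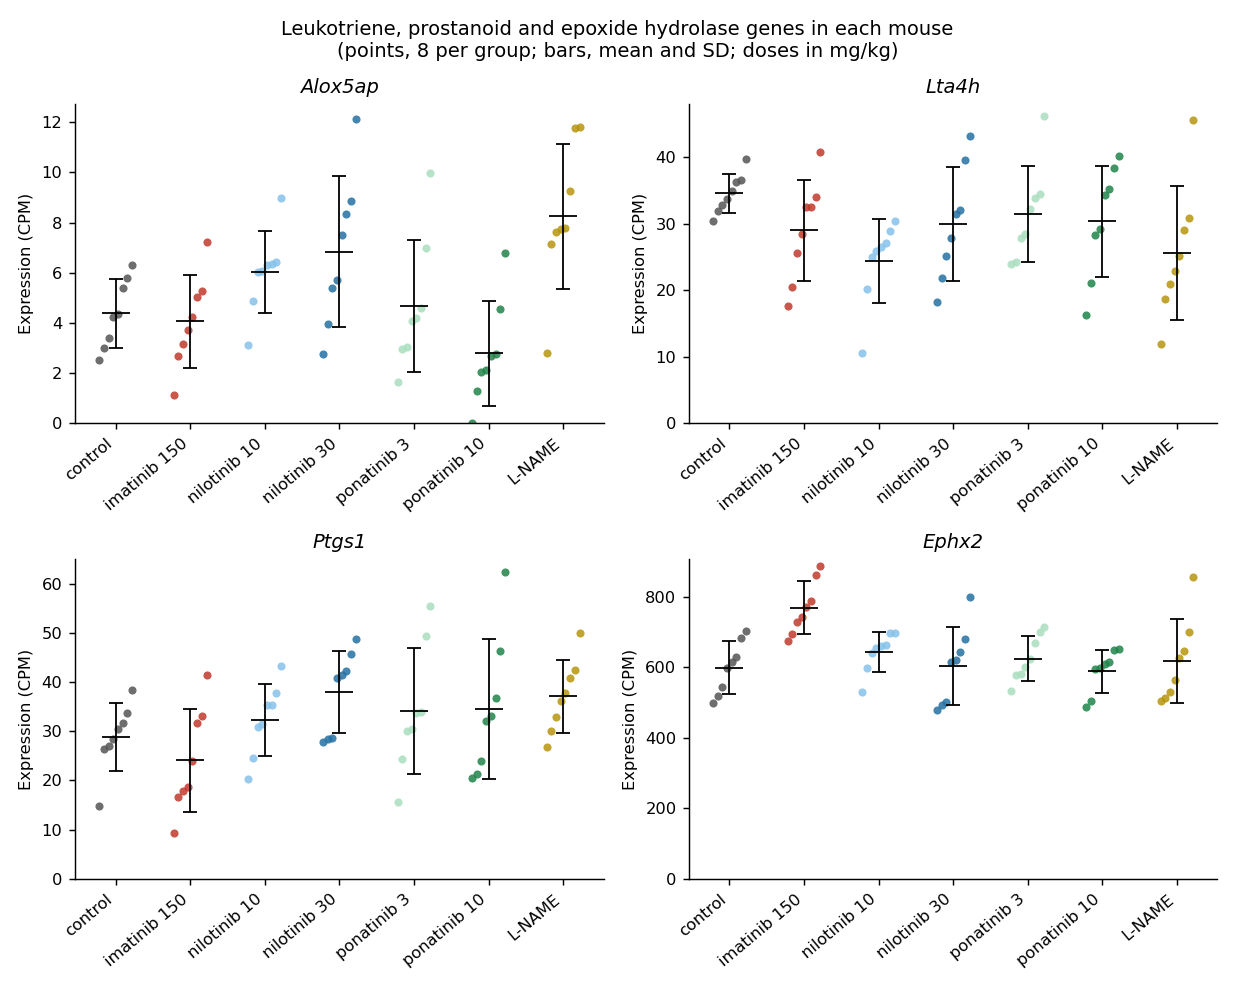
Expression of Alox5ap, Lta4h, Ptgs1 and Ephx2 in CPM in each of 8 mice per group (points), with mean and SD (bars). All 8 nilotinib 10 mg/kg mice lie at or under 30.4 CPM of Lta4h, and 6 of 8 imatinib mice lie above the highest control, 703 CPM, for Ephx2.

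Side by side, the 6 comparisons with control differed in how many members were called. With L-NAME it was 1 of 8, Pla2g12a, beside 11.8% of all genes called and 5.55% called higher. In the edgeR fit of all groups none of the 8 tested members was called with nilotinib 10 mg/kg (1.41% of all genes), nilotinib 30 mg/kg (5.77%), ponatinib 3 mg/kg (0.0419%) or ponatinib 10 mg/kg (13.1%). At an unadjusted p below 0.05 the counts in these 4 comparisons were 1, 0, 1 and 0 of 8, and DESeq2 called 0 in each. limma called 0 in the first 3 and Pla2g7 with ponatinib 10 mg/kg. The median log2 difference of the 8 genes was -0.18 with imatinib, beside -0.02 over all genes, and -0.10 with ponatinib 10 mg/kg, beside -0.01.

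**Figure D4:**
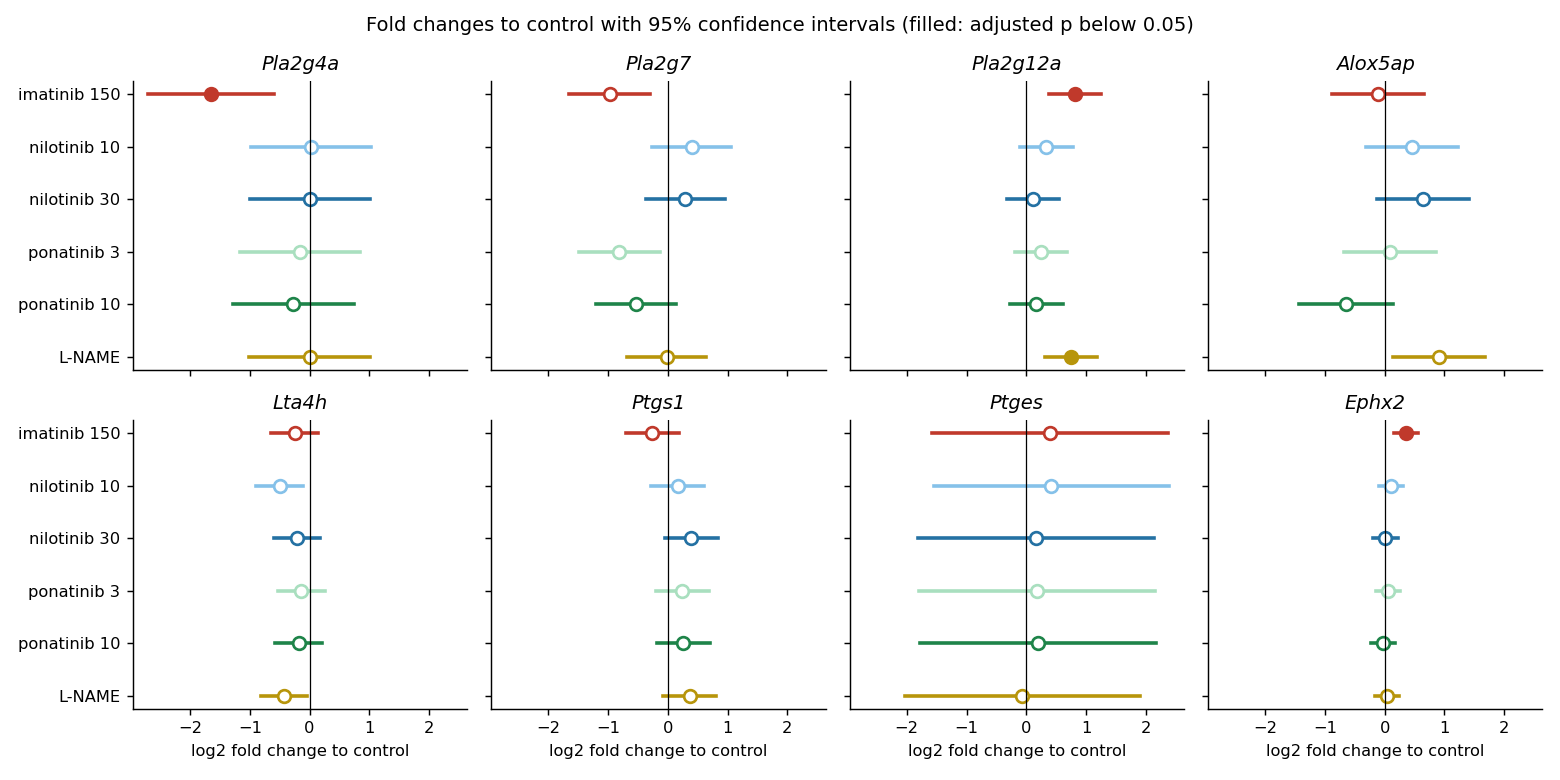
Log2 fold change to control with 95% confidence interval for the 8 tested genes in 6 treated groups (filled points, adjusted p below 0.05). Filled points are Pla2g4a, Pla2g12a and Ephx2 with imatinib and Pla2g12a with L-NAME, and the intervals of Ptges are the widest.

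Doses and compounds were also compared directly. Between nilotinib 30 and 10 mg/kg edgeR called 0 of 8 members (0.0% of all genes, and 0 of 8 at an unadjusted p below 0.05), with log2 differences from -0.26 to 0.30. Between ponatinib 10 and 3 mg/kg it called 0 of 8 (1.39% of all genes, and 0 of 8 unadjusted), with the lowest value for Alox5ap at -0.74 (interval -1.53 to 0.04). DESeq2 and limma called none in either comparison. At the matched dose of 10 mg/kg, ponatinib and nilotinib were not separated by edgeR (0 of 8, beside 2.06% of all genes, and 2 of 8 at an unadjusted p below 0.05). The 2 were Alox5ap, lower with ponatinib by a log2 difference of -1.11 (interval -1.89 to -0.32, adjusted p = 0.12), and Pla2g7 (-0.93, interval -1.60 to -0.26, adjusted p = 0.13). DESeq2 called Alox5ap (adjusted p = 0.047), and limma called none. For Pla2g12a and Ephx2 the intervals at this dose were -0.60 to 0.27 and -0.33 to 0.08.

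The remaining pairs differ in dose, so they compare the groups as given and not the compounds at a shared dose. Pla2g7 was lower and Ephx2 higher with imatinib 150 mg/kg than with nilotinib 30 mg/kg. These 2 of 8 members (3.59% of all genes called) had log2 differences of -1.27 (interval -1.95 to -0.59, adjusted p = 0.021) and 0.35 (interval 0.14 to 0.55, adjusted p = 0.038). Pla2g7 was called in all 8 other settings, whereas Ephx2 was not called with upper-quartile scaling, with no filter, with these 16 mice alone or in limma. In 6 of 8 imatinib mice Pla2g7 lay below every nilotinib 30 mg/kg mouse. Ephx2 was also higher with imatinib than with ponatinib 10 mg/kg, by 0.38 (interval 0.18 to 0.59, adjusted p = 0.04), where 1.08% of all genes were called. All 8 imatinib mice exceeded every ponatinib 10 mg/kg mouse, whose highest value was 652 CPM. Here too the share of all genes whose groups separate is not given. This Ephx2 call was lost without the 5 libraries above, with no filter and with these 16 mice alone. When ponatinib 10 mg/kg was set against the higher nilotinib dose, edgeR called 0 of 8 (1.88% of all genes, and 2 of 8 at an unadjusted p below 0.05). Alox5ap differed there by -1.29 (interval -2.08 to -0.50, adjusted p = 0.071), and DESeq2 and limma each called it (adjusted p = 0.018 and 0.025).

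The surrounding pathway was described with 6 further gene lists. Of 17 tested epoxygenase, omega-hydroxylase and epoxide hydrolase genes, which act next to Ephx2, 8 rose with imatinib and none fell, and their median log2 difference was 0.68 beside -0.02 over all genes. Of all genes 10.3% were called with imatinib, 5.69% of them higher and 4.58% lower as shares of all genes. Cyp2c50, an epoxygenase, rose from 481 ± 104 to 830 ± 78.0 CPM (SD, n = 8, log2 fold change 0.79, edgeR adjusted p = 3.2e-05). Cyp4a10, a fatty acid omega-hydroxylase, rose from 449 ± 128 to 1010 ± 239 CPM (1.17, adjusted p = 7.3e-05), and its relative Cyp4a31 from 12.5 ± 3.20 to 34.4 ± 10.1 CPM (1.46, adjusted p = 7.3e-05). The count was also 8 with the outside-gene share as a covariate and without the 5 libraries above. Cyp2c and Cyp4a genes have near copies in the genome, so the division of reads among them is uncertain. In the edgeR fit of all groups at most 1 of the 17 rose and at most 1 fell in each of the other 5 treated groups. Between 0.0419% (ponatinib 3 mg/kg) and 13.1% (ponatinib 10 mg/kg) of all genes were called there. Cyp4a31 rose with nilotinib 30 mg/kg (0.85, adjusted p = 0.029), a call lost with the covariate (0.78, adjusted p = 0.18). limma called up to 3 higher and 3 lower, with ponatinib 10 mg/kg.

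Of 14 tested genes of prostanoid synthesis and breakdown, 2 rose and 2 fell with imatinib (10.3% of all genes called), and the list's median was -0.33. With ponatinib 10 mg/kg 1 rose and 3 fell (13.1% of all genes), with a median of -0.39. With L-NAME 1 rose and 3 fell (11.8% of all genes), with a median of 0.10. With nilotinib 30 mg/kg 1 rose and 1 fell (5.77% of all genes). Thromboxane synthase, Tbxas1, fell with imatinib from 11.05 ± 2.70 to 4.40 ± 1.51 CPM (log2 fold change -1.33, edgeR adjusted p = 0.0056). Ptges3, a cochaperone that also has prostaglandin E synthase activity, rose with imatinib (0.52, adjusted p = 0.014), nilotinib 30 mg/kg (0.51, adjusted p = 0.022), ponatinib 10 mg/kg (0.55, adjusted p = 0.0063) and L-NAME (0.58, adjusted p = 0.0044). With the outside-gene share as a covariate none of the 14 was called higher in any of these groups. Abcc4, an exporter that carries prostaglandins, fell from 40.5 ± 32.5 to 10.8 ± 6.00 CPM with ponatinib 10 mg/kg (-1.91, adjusted p = 0.0018).

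Among 9 tested genes of the leukotriene and lipoxygenase list, Cyp4f18, which degrades leukotriene B4, fell with imatinib from 3.42 ± 2.75 to 0.582 ± 0.582 CPM (log2 fold change -2.53, edgeR adjusted p = 0.028). It was the only 1 of the 9 called with imatinib, beside 10.3% of all genes. The call was lost in limma (adjusted p = 0.06), and in the 16 mice alone the gene was under the filter. Its relatives Cyp4f13 with ponatinib 10 mg/kg (0.50, adjusted p = 0.006) and Cyp4f15 with L-NAME (0.47, adjusted p = 0.011) rose, calls lost with the outside-gene share as a covariate (adjusted p = 0.084 and 0.13). Each was the only 1 of the 9 called there, beside 13.1% and 11.8% of all genes. Of 10 tested receptor genes, Ptafr, the platelet-activating factor receptor (-1.59, adjusted p = 0.024), and Cysltr1, a cysteinyl leukotriene receptor (-2.40, adjusted p = 0.032), fell with ponatinib 10 mg/kg, where 13.1% of all genes were called. In the other 5 groups, where 0.0419% to 11.8% of all genes were called, edgeR called none of the 10. The Ptafr and Cysltr1 calls were both lost with the covariate (adjusted p = 0.11 and 0.1), that of Ptafr in limma (adjusted p = 0.055), and DESeq2 gave Cysltr1 no adjusted p. None of the 9 other tested phospholipase A2 genes was called with imatinib in edgeR, DESeq2 or limma. Pnpla8, a calcium-independent phospholipase, fell with nilotinib 30 mg/kg (-0.52, adjusted p = 0.0039), ponatinib 10 mg/kg (-0.47, adjusted p = 0.0042) and L-NAME (-0.60, adjusted p = 0.00037), and Pafah2 fell with L-NAME (-0.38, adjusted p = 0.014). These were 1 of 9 with nilotinib 30 mg/kg (5.77% of all genes), 1 with ponatinib 10 mg/kg (13.1%) and 2 with L-NAME (11.8%). With the covariate the Pnpla8 call was made with L-NAME and was lost with nilotinib 30 mg/kg (adjusted p = 0.092) and ponatinib 10 mg/kg (adjusted p = 0.13), and that of Pafah2 was lost (adjusted p = 0.23).

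Of 9 genes that supply arachidonate, Acsl4, which activates it to its acyl-CoA, fell with imatinib (-0.53, adjusted p = 0.026), ponatinib 10 mg/kg (-0.51, adjusted p = 0.024) and L-NAME (-0.71, adjusted p = 0.0019). The desaturase Fads2 fell with nilotinib 30 mg/kg (-0.97, adjusted p = 0.0023), ponatinib 10 mg/kg (-0.61, adjusted p = 0.037) and L-NAME (-0.91, adjusted p = 0.0018). The list thus had 1 of 9 called with imatinib (10.3% of all genes) and 1 with nilotinib 30 mg/kg (5.77%). It had 2 with ponatinib 10 mg/kg (13.1%) and 2 with L-NAME (11.8%). With the outside-gene share as a covariate no gene of this list was called in any group by edgeR.

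Markers of other liver cells were read beside the members that such cells express. In bulk liver, fewer cells of a type and less RNA per cell cannot be told apart. The 12 Kupffer cell markers summed to 984 to 1861 CPM in control mice and to 603 to 1223 CPM with imatinib, and 3 of 12 fell (Cd5l, Adgre1 and Csf1r), beside 4.58% of all genes. Clec4f, Vsig4, Timd4 and Marco were not called with imatinib. The 13 recruited monocyte and neutrophil markers summed to 186 to 782 CPM in control mice and to 102 to 222 CPM with imatinib, with Ly6g and Mpo at 0 in both groups, and 5 of 11 tested fell. The 5 were Lyz2, Trem2, Gpnmb, Cd68 and Itgax, beside 4.58% of all genes called lower. Ccr2, Ly6c2, Itgam, Cx3cr1, S100a8 and S100a9 were not called. Lyz2 fell from 261 ± 103 to 96.8 ± 27.1 CPM (log2 fold change -1.43, edgeR adjusted p = 0.00036), Trem2 by 2.02 on the log2 scale (adjusted p = 0.0027) and Gpnmb fell by 4.74 (adjusted p = 4.1e-05, in limma 0.053). Their part in the lower Pla2g4a and Pla2g7 values was not tested. With the outside-gene share as a covariate 1 Kupffer cell marker and 3 monocyte and neutrophil markers were called lower.

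With ponatinib, Gpnmb fell at both doses (-3.59, adjusted p = 0.025, and -4.40, adjusted p = 7.5e-05). Neither call was made in limma (adjusted p = 0.094 and 0.093), and at 3 mg/kg it was lost with these 16 mice alone (adjusted p = 0.069). The monocyte and neutrophil sum ranged from 140 to 406 CPM at 3 mg/kg and from 121 to 560 CPM at 10 mg/kg. With L-NAME, where Alox5ap was high in 7 of 8 mice, this sum ranged from 195 to 821 CPM and the Kupffer sum from 941 to 2300 CPM, and the lymphocyte sum from 9.44 to 29.6 CPM beside 5.79 to 14.3 CPM in control, with no lymphocyte marker called in the edgeR fit of all groups and 1 in limma. Clec4f, a Kupffer cell lectin, rose with L-NAME (0.69, adjusted p = 0.0088), nilotinib 30 mg/kg (0.64, adjusted p = 0.028) and ponatinib 10 mg/kg (0.61, adjusted p = 0.022), calls lost with the covariate (adjusted p = 0.082, 0.13 and 0.12) and, for ponatinib, in limma (0.066) and with these 16 mice alone (adjusted p = 0.1). With L-NAME and nilotinib 30 mg/kg Clec4f was the only 1 of 12 Kupffer cell markers called, beside 11.8% and 5.77% of all genes. With ponatinib 10 mg/kg, where 13.1% of all genes were called, Marco was also called higher, and the list's median was 0.24 beside -0.01 over all genes. The Marco call was lost with the covariate (adjusted p = 0.051), with these 16 mice alone (adjusted p = 0.089) and in limma (adjusted p = 0.25). In that group Adgre1 (-0.62, adjusted p = 0.27) and Cd5l (-0.40, adjusted p = 0.26) had lower values and were not called. The 5 mast cell markers stood at 2.07 CPM or less in sum in every mouse, and none was tested. Endothelial, stellate and cholangiocyte lists had no called marker in the edgeR fit of all groups, while limma called between 0 and 5 markers of a list per comparison. Of the 8 hepatocyte markers, Apoa1, Ttr and Serpina1b rose and Cps1 fell with imatinib, and likewise with ponatinib 10 mg/kg, beside 10.3% and 13.1% of all genes called. Cps1 also fell with both nilotinib doses and L-NAME. Apoa1 rose and Hnf4a fell with nilotinib 30 mg/kg and L-NAME, and Serpina1b rose with L-NAME. The Ttr call with imatinib was lost with the covariate (adjusted p = 0.21), with no filter (adjusted p = 0.052) and without the 5 libraries (adjusted p = 0.062). With the covariate the Cps1 and Hnf4a calls outside imatinib were lost too. So were those of Ttr with ponatinib 10 mg/kg, Apoa1 with nilotinib 30 mg/kg and Serpina1b with L-NAME. Among 3 tested platelet markers, Itga2b rose with ponatinib 10 mg/kg (1.21, adjusted p = 0.013) and L-NAME (1.06, adjusted p = 0.032), beside 13.1% and 11.8% of all genes called. Both calls were lost with the covariate (adjusted p = 0.25 and 0.38), and the L-NAME call also with no filter (adjusted p = 0.056), without the 5 libraries (adjusted p = 0.098) and without mouse 010 (adjusted p = 0.076).

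The genes whose log2 CPM most resembled each member over the 56 mice are given as a description, since differences in depth and between treatment groups enter every pair of genes. Pla2g7 was most like Lyz2 (Pearson r = 0.831 over 56 mice, 0.787 after subtraction of group means), Cybb (0.812) and Laptm5 (0.811). Pla2g4a was most like Cd44 (r = 0.726, within groups 0.663), Msn and Colgalt1, and Pla2g4a and Pla2g7 correlated at 0.65 (within groups 0.601). Alox5ap was most like Ifi30 (0.692), Bcl2 and Plcb2, and Ptgs1 most like Ano6 (0.753), Themis2 and Gngt2. Ephx2 was most like Retsat (0.772), Cyp4a10 (0.751) and Acadvl (0.75), and it correlated at -0.544 with Pla2g7 and -0.531 with Ptgs1. Pla2g12a (Mrps15, 0.575), Lta4h (4930556M19Rik, 0.597) and Ptges (Tmem161a, 0.516) had no gene above 0.6. The median r over the 12 Kupffer cell markers was 0.63 for Ptgs1 and 0.557 for Pla2g7, 0.4 for Pla2g4a, 0.336 for Alox5ap, and -0.456 for Ephx2. For Ptges, Pla2g12a and Lta4h it was 0.046, -0.092 and -0.129. Over the 11 tested monocyte and neutrophil markers it was 0.556 for Pla2g7, 0.392 for Ptgs1, 0.372 for Alox5ap and 0.344 for Pla2g4a. There it was 0.135 for Ptges, -0.05 for Pla2g12a, -0.102 for Lta4h and -0.354 for Ephx2. Which cells express each member was not tested.

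**Figure D5:**
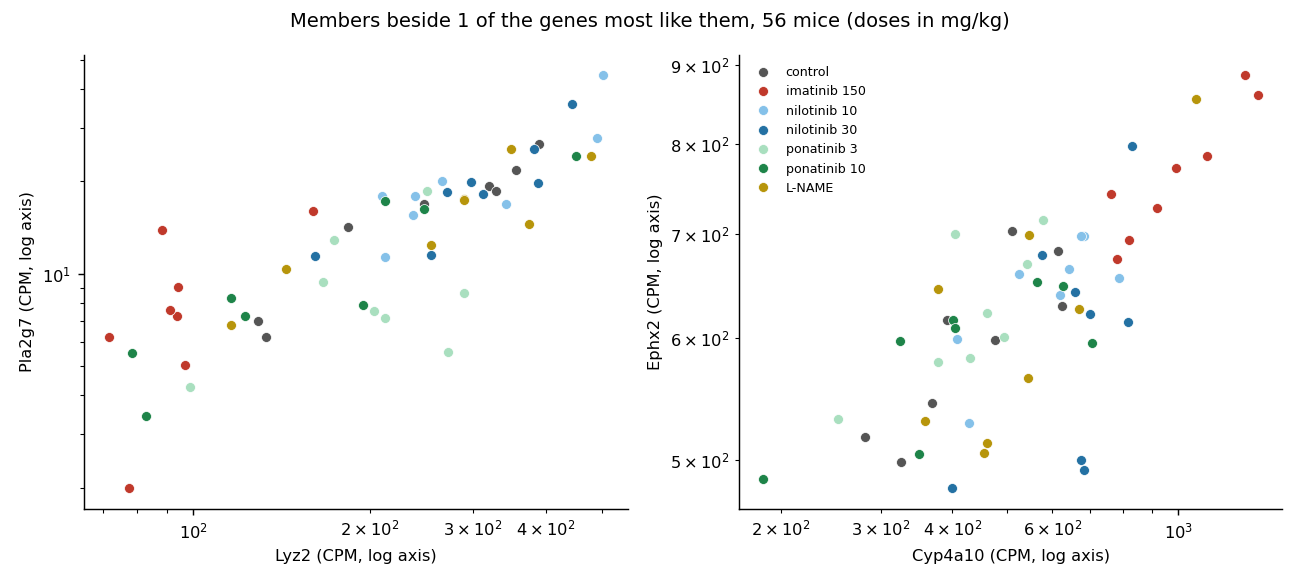
Pla2g7 against Lyz2 and Ephx2 against Cyp4a10 in each of 56 mice, in CPM on log axes and coloured by group (r = 0.831 and 0.751 on log2 CPM). Imatinib mice lie toward low Lyz2 on the left and toward high Cyp4a10 on the right.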

How the data were processed

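Polyadenylated liver RNA of 56 mice was prepared with a kit that does not mark strand. The authors deposited, per mouse, whole read counts per Ensembl gene, not normalized; the submitters' processing notes name TopHat2 2.0.14, Bowtie2 2.1.0, SAMtools 0.1.18 and HTSeq 0.6.1p1. The annotation release, strand setting and overlap mode are not given in the sources used here. Symbols came from GENCODE vM21 (44671 of 45513 identifiers matched). Counts of the 7 groups were fitted together with edgeR 4.0.16 in R 4.3.3 (TMM, filterByExpr, quasi-likelihood test, 14314 genes), with Benjamini-Hochberg adjustment over all genes and calls at 0.05. The fit was tested on simulated data. Rows naming no gene were left out of library sizes, and 2.01 to 3.65% of reads were ambiguous. Alternatives were upper-quartile scaling, other filters, each pair of groups alone, the outside-gene share as covariate, limma 3.58.1, DESeq2 1.42.0 and, chosen after seeing the data, leaving out libraries. No 2 libraries held identical values. Each mouse is 1 library, and replicate numbers are not shared between groups. Named were all members, up to 3 called genes per list by adjusted p, and the 3 genes most like each member; other genes named in counts were chosen after their values were seen. Members and lists were chosen with earlier results of these data known. Confidence intervals come from the edgeR fit and include variation between mice. Floors of 3 reads cover counting error only.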

Additional observations from a re-analysis of the deposited data

Results flagged for a closer look

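Of 66 combinations of gene and group, 9 had a mouse that stood apart from the other 7, beside about 3.3 given by chance, which flags about 1 in 20 groups. In each the mouse was the highest. For Alox5 and Ptgs2 there were 6, resting on few reads. The chance rate assumes normally distributed values, and many mice had no read of these 2 genes. The 3.3 is therefore no baseline for these 6. Alox5 stood at 0.542 CPM in control mouse 052 (7 reads), 1.46 CPM in ponatinib 3 mg/kg mouse 034 (11 reads) and 0.539 CPM in L-NAME mouse 038 (4 reads). Ptgs2 stood at 2.65 CPM in control mouse 033 (22 reads), 0.111 CPM in nilotinib 30 mg/kg mouse 031 (1 read) and 0.863 CPM in L-NAME mouse 010 (90 reads). The other 3 were Pla2g4a at 9.78 CPM in ponatinib 3 mg/kg mouse 017, where the next mouse had 4.65 CPM, Lta4h at 46.3 CPM in ponatinib 3 mg/kg mouse 029 (next 34.5 CPM), and Ptges at 6.68 CPM in nilotinib 10 mg/kg mouse 036 (next 1.98 CPM).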

How the results depend on the processing

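Outside the fits that left out 1 mouse, 89 counts of called members stayed within 1.5 times the reported count and 20 did not. With the share of reads outside genes as a covariate, 1 member was called with imatinib and 0 with L-NAME. With limma the counts were 1 with ponatinib 10 mg/kg, 3 with L-NAME and 1 between ponatinib 10 and nilotinib 30 mg/kg. With DESeq2 they were 2 with L-NAME, 1 between ponatinib and nilotinib at 10 mg/kg, 4 between imatinib and nilotinib 30 mg/kg and 1 between ponatinib 10 and nilotinib 30 mg/kg. At an unadjusted p below 0.01 these last 3 comparisons gave 2, 5 and 1, and imatinib against ponatinib 10 mg/kg gave 2. With no filter the counts were 1 with ponatinib 10 mg/kg, 1 between imatinib and nilotinib 30 mg/kg and 0 between imatinib and ponatinib 10 mg/kg. With the 16 mice alone they were 2 with L-NAME and 0 between imatinib and ponatinib 10 mg/kg, which was also 0 without the 5 libraries with the highest outside-gene share. Upper-quartile scaling gave 1 between imatinib and nilotinib 30 mg/kg. Leaving out 1 mouse gave 2 to 4 with imatinib and 0 to 2 with L-NAME (0 without control 046 or L-NAME 055, 2 without L-NAME 038). The cause of these shifts was not tested.

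Of the member log2 fold changes, 356 kept direction and call under other settings, 8 gained a call, 5 lost one and 19 changed sign, none of the last called. With limma the sign changed for Pla2g4a with nilotinib 10 mg/kg (-0.40), nilotinib 30 mg/kg (-0.44) and L-NAME (-0.016), for Ptges with nilotinib 10 mg/kg (-0.92) and ponatinib 3 mg/kg (-0.60), and for Alox5ap (-0.21) and Ptgs1 (-0.028) with ponatinib 3 mg/kg. With the covariate it changed for Ephx2 with nilotinib 30 mg/kg (-0.042) and L-NAME (-0.017), for Pla2g4a (0.036) and Ptges (-0.012) with ponatinib 10 mg/kg, and for Pla2g7 with L-NAME (0.29, and 0.0071 with upper-quartile scaling). Pla2g4a with L-NAME, reported at 0.0016, was -0.0055 with no filter, -0.0032 with the 16 mice alone, -0.013 without the 5 libraries and -0.012 without mouse 010, and with nilotinib 30 mg/kg it was -0.0013 with no filter. Ephx2 with nilotinib 30 mg/kg was -0.093 without the 5 libraries. Leaving out 1 mouse changed the sign of Alox5ap with imatinib (-0.28 to 0.032) and, with L-NAME, of Pla2g4a (-0.15 to 0.20), Pla2g7 (-0.15 to 0.11), Ptges (-0.40 to 0.12) and Ephx2 (-0.038 to 0.081).

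Over all genes, the covariate lowered the calls from 1471 to 653 with imatinib, 202 to 13 with nilotinib 10 mg/kg, 826 to 96 with nilotinib 30 mg/kg, 1877 to 369 with ponatinib 10 mg/kg and 1688 to 258 with L-NAME. limma raised them to 3327, 1240, 2349, 3743 and 3737 in these comparisons, and from 6 to 571 with ponatinib 3 mg/kg, where DESeq2 called 47. The counts of the other gene lists moved by over 1.5 times in 86 cases and stayed within it in 260. Alox5, Ptgs2 and Ptges are limited by depth.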
